A study of Homo sapiens with 12 samples.

Results

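The endothelin system was followed through 6 genes of 25369 in the count data: the ligand genes EDN1 and EDN2, the receptor genes EDNRA and EDNRB, and the converting enzyme genes ECE1 and ECE2. Members were matched by gene symbol, and all 6 were found. The group was chosen on the level of EDN2 in the 4 cell lines, so the values of EDN2 are given as a description, with no test. The levels of the other 5 members did not enter that choice, though the members were listed with earlier results of these data known.

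Endothelins are short peptides that act on neighbouring cells, and they are best known as constrictors of blood vessels. A long precursor is cut by proprotein convertases to an inactive intermediate, the big endothelin, which a converting enzyme then cuts to the active peptide. The active peptides bind G protein-coupled receptors that raise intracellular calcium through phospholipase C. In bone, endothelin signalling is known to act on osteoblasts, and tumour cells can secrete endothelins.

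The RNA came from U2OS, a human osteosarcoma cell line, in which a Tet-On system drives the gene carried by a stably integrated pTRE vector. The 4 lines carried the empty vector (pTRE), hemagglutinin (HA)-tagged wild-type E2F1 (WT), HA-tagged E2F1 with the R109K change (R109K), or HA-tagged E2F1 with the changes R111/113K (KK). R109K lacks the arginine that the methyltransferase PRMT1 modifies, and KK lacks the arginines that PRMT5 modifies. All lines, pTRE included, were given doxycycline at 1 μg/ml for 24 hours and grown under antibiotic selection, and each was sampled as 3 biological replicates of poly(A) RNA. Whether a line was 1 clone is not given in the sources used here. Each construct was represented by 1 line, so the construct and any other difference between the lines cannot be told apart, and the p-values measure the spread between replicates of a line. No sample without doxycycline was analysed here.

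Between 11500537 and 31040903 reads per sample fell on genes, and the lowest total was that of WT replicate 2, where 31.2% of reads fell on genes against 59.0% to 65.7% in the other samples. Levels are CPM, the share of the reads on genes scaled to a fixed total, after TMM scaling. Levels of different members were compared per kilobase of exon, and the marker levels below are CPM without that division. The RNA of E2F1, counted from the resident gene and the construct together, averaged 91.2 CPM ± 9.43 (SD, n = 3) in pTRE and 1811 ± 445 in WT, 1158 ± 196 in R109K and 1316 ± 187 in KK. E2F1 was thus higher than in pTRE in all 9 samples of the lines that carry an E2F1 construct. Between R109K and WT, E2F1 differed by -0.65 on the log2 scale (SE 0.18), with an adjusted p of 0.0577 (edgeR). The labels call the cells osteosarcoma and epithelial. Of 12 osteoblast and mesenchymal markers, 8 passed the filter on low counts, with VIM, SPARC and COL1A1 at high levels and SP7, IBSP, BGLAP and COL1A2 near 0. Their summed level was 6740 to 8020 CPM in the empty-vector line, 3700 to 3720 in R109K, 3000 to 3510 in KK and 2610 to 3220 in WT. The sum rests largely on a few genes: over all samples COL1A1 ranged from 541 to 4080 CPM, SPARC from 457 to 1790 and VIM from 1150 to 1790. Of 9 epithelial markers 6 passed the filter, with a summed level of 746 to 920 CPM in pTRE and 365 to 660 over the E2F1 lines. KRT8 and KRT18 made up most of that level, and GRHL2, OVOL1 and KRT19 were near 0. Endothelial cells are a main source of endothelin in the body, and their 8 markers summed to 4.12 to 9.35 CPM over all samples, with PECAM1 at a mean of 0.0218 CPM. Melanocyte and neural crest cells depend on endothelin receptors, and their 7 markers summed to 15.9 to 16.5 CPM in pTRE and 23.8 to 36 in the E2F1 lines, with most of it from MITF.

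The promoters of the ligand genes are shown because their transcripts lay on opposite sides of pTRE in the samples with E2F1. EDN2 spans 41944446 to 41950354 of chromosome 1 (GRCh37, minus strand), and EDN1 spans 12290594 to 12297427 of chromosome 6 (plus strand). The RefSeq windows run from 250 bases before to 50 after a transcript start. They come from a table built on GRCh38.p14 and were located by exact match in GRCh37, where each occurs once on its chromosome. Both are written 5′ to 3′ on the strand of the gene, and the capitals mark TATAA, the core of a TATA box.
EDN2 (GRCh37, chr1:41950305-41950604, minus strand): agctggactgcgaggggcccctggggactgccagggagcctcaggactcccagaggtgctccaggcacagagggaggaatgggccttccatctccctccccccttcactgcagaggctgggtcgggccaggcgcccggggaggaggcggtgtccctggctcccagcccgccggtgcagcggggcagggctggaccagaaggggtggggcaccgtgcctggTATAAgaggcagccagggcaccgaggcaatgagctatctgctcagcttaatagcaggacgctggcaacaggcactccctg
EDN1 (GRCh37, chr6:12290344-12290643, plus strand): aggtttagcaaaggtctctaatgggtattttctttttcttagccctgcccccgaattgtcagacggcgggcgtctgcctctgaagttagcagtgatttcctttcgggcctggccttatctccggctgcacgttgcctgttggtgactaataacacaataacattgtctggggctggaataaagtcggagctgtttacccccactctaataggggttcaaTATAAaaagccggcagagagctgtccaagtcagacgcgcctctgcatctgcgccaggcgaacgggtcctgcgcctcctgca

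In these windows, TATAA began at -30 in EDN2 and at -31 in EDN1, counted from the transcript start. The motif was chosen after the sequences were seen, and 20.4% of all 35116 windows hold it on either strand. The EDN2 window held 11 CpG dinucleotides at a GC content of 68.3%, and the EDN1 window shown held 15 at 52.7%, against medians of 14.0 and 58.7% over all windows. EDN1 has further windows that are not shown. That of the transcript start at 12288252 held 13 CpG dinucleotides at 55.7%, with TATAA at -199 on the opposite strand. That of the start at 12290247 held 8 at 42.7% and no TATAA. The E2F letters TTTGGCGC, TTTCCCGC, TTTCGCGC and TTTGCCGC were searched on both strands. They were found in 0 of the 11 windows that 5 members have in the table, and in 3.32% of all windows. The windows are shorter than the proximal promoter region in which the paper looked for E2F motifs, and the paper also used ChIP-seq peaks. Sequence outside the windows was not searched. At that share, 0 of 11 is not read as a lack of E2F sites. ECE2 had no window in the table.

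EDN2, which encodes the ligand endothelin-2, was the member with the widest range in fold among those that passed the filter. Its level was 9.34, 9.88 and 15.2 CPM in pTRE (226, 260 and 414 reads), 1.03, 0.964 and 1.59 in WT (29, 12 and 44 reads), 2.92, 5.16 and 6.35 in R109K (90, 142 and 155 reads), and 0.934, 2.21 and 1.46 in KK (27, 46 and 37 reads). The 3 pTRE samples were above all 9 samples with E2F1, the 3 R109K samples came next, and the WT and KK samples overlapped below them. The shallow WT replicate 2 rested on 12 reads, with an exact Poisson interval (95%) of 0.498 to 1.68 CPM for counting error only. In means, EDN2 was at 11.5 CPM ± 3.24 (SD, n = 3) in pTRE and 1.20 ± 0.343 in WT, 4.81 ± 1.74 in R109K and 1.53 ± 0.641 in KK. WT held 10.4% of the pTRE mean, KK 13.4% and R109K 41.9%.

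The fitted difference of EDN2 from pTRE was -3.22 on the log2 scale (SE 0.35) in WT, -2.93 (SE 0.34) in KK and -1.26 (SE 0.30) in R109K, and these comparisons share the pTRE samples. Among the 16625 genes that passed the filter, EDN2 ranked 9 from the most lowered in WT, 26 in KK and 352 in R109K. Between the E2F1 lines, EDN2 was higher in R109K than in WT by 1.96 (SE 0.35) and than in KK by 1.67 (SE 0.34), and KK differed from WT by 0.29 (SE 0.38). Without WT replicate 2, the difference of WT from pTRE was -3.13. The E2F1 RNA and the summed mesenchymal markers given above also moved between pTRE and the E2F1 lines. Between the E2F1 lines, E2F1 did not pass an adjusted p of 0.01. The edgeR adjusted p was 0.0577 for R109K against WT, 0.773 for R109K against KK and 0.574 for KK against WT. E2F1 was at 932 to 1283 CPM in R109K, below all WT samples (1469 to 2315), and at 1112 to 1478 in KK. The marker sum was 3700 to 3720 CPM in R109K, above KK (3000 to 3510) and WT (2610 to 3220). The part of the E2F1 RNA and of these markers in the level of EDN2 was not tested. In bulk RNA, fewer cells with a transcript and less of it per cell cannot be told apart.

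**Figure D1:**
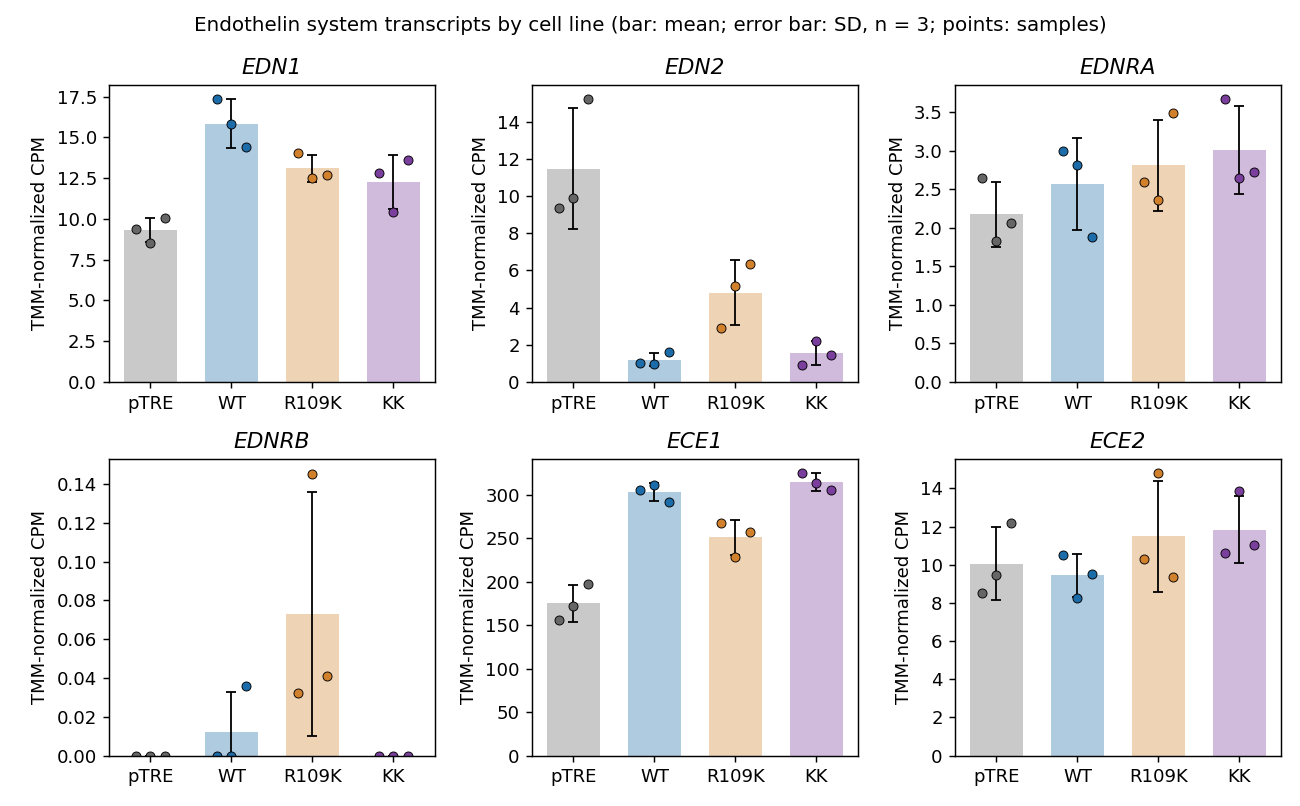
TMM-normalized CPM (y axis, from 0) of the 6 members in the pTRE, WT, R109K and KK lines; bars are means, error bars SD (n = 3) and points samples, and each gene has its own scale. EDN2 is highest in the 3 pTRE samples (9.34 to 15.2 CPM) and intermediate in R109K (2.92 to 6.35), ECE1 is lowest in pTRE (156 to 197), and EDNRB stays at or near 0.

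EDN1, which encodes endothelin-1, lay above pTRE where EDN2 lay below it. It was at 9.38, 8.55 and 10.1 CPM in pTRE, 17.4, 15.8 and 14.4 in WT, 14.1, 12.5 and 12.7 in R109K, and 12.8, 10.4 and 13.6 in KK. All 9 samples with E2F1 were above the 3 pTRE samples, and R109K and KK overlapped. The share of all tested genes that separate from pTRE in this way was not counted, so the separation is not read as particular to EDN1. The means were 9.33 CPM ± 0.759 (SD, n = 3) in pTRE and 15.9 ± 1.48 in WT, 13.1 ± 0.843 in R109K and 12.3 ± 1.66 in KK. In WT, EDN1 rose by 0.76 on the log2 scale (SE 0.14), with an adjusted p of 0.000465 (edgeR quasi-likelihood test, Benjamini-Hochberg). The differences of 0.49 in R109K (SE 0.14, adjusted p = 0.0144) and 0.40 in KK (SE 0.14, adjusted p = 0.0338) did not pass the adjusted p threshold of 0.01. Between the lines, KK differed from WT by -0.37 (95% interval -0.66 to -0.08), R109K from WT by -0.27 (-0.56 to 0.01) and R109K from KK by 0.09 (-0.20 to 0.38), with edgeR adjusted p of 0.574, 0.243 and 0.889.

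Per kilobase of exon, the order of the ligands was reversed between pTRE and the E2F1 lines. EDN2 averaged 6.96 CPM per kilobase and EDN1 4.59 in pTRE. In WT the values were 0.725 for EDN2 and 7.79 for EDN1, in R109K 2.92 and 6.44, and in KK 0.931 and 6.03. The ratio of EDN2 to EDN1 within a sample was 1.23, 1.43 and 1.86 in pTRE, 0.0735, 0.0752 and 0.136 in WT, 0.256, 0.508 and 0.617 in R109K, and 0.0901, 0.262 and 0.132 in KK. It was above 1 in all 3 pTRE samples, though 0.996 in pTRE replicate 1 without division by exon length. It was below 1 in all 9 others, and R109K replicate 1 overlapped with KK replicate 2. The mean ratio was 1.51 ± 0.322 (SD, n = 3) in pTRE and 0.0949 ± 0.0356 in WT, 0.46 ± 0.185 in R109K and 0.161 ± 0.0896 in KK. The ratio contains the gene that chose the group and was therefore not tested. EDN3, the third ligand gene, had 0 to 4 reads in every sample and did not pass the filter.

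**Figure D2:**
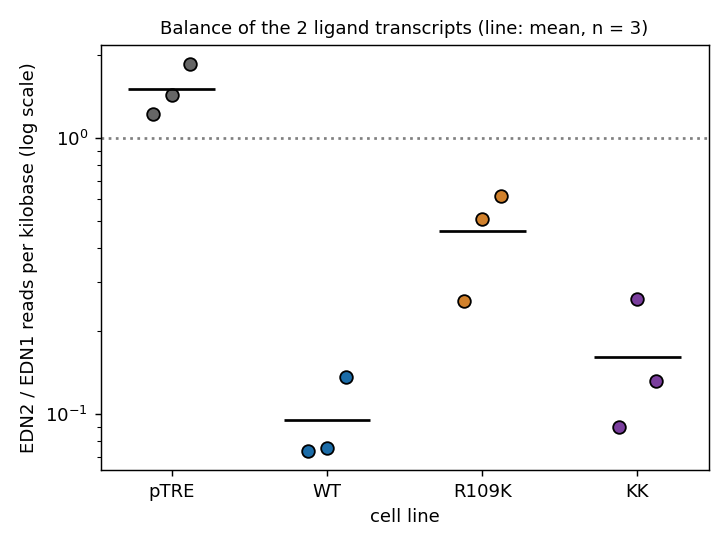
Ratio of EDN2 to EDN1 reads per kilobase of exon (y axis, log scale) in each sample of the 4 lines; horizontal lines are means (n = 3) and the dotted line marks a ratio of 1. The pTRE samples lie at 1.23 to 1.86, the R109K samples at 0.256 to 0.617, and the WT and KK samples at 0.0735 to 0.262.

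Of the receptor genes, EDNRA was measured at a low level and EDNRB was close to absent from the counts. EDNRA (GRCh37, chromosome 4, 148402069 to 148466106, plus strand) encodes the type A receptor that carries the constrictor response. Its level was 2.64, 1.82 and 2.06 CPM in pTRE, 2.99, 2.81 and 1.88 in WT, 2.59, 2.36 and 3.48 in R109K, and 3.67, 2.64 and 2.72 in KK, from 35 to 106 reads a sample. The lines overlapped. EDNRA differed from pTRE by 0.23 on the log2 scale in WT (95% interval -0.33 to 0.78, adjusted p = 0.508), by 0.37 in R109K (-0.17 to 0.91, adjusted p = 0.316) and by 0.48 in KK (-0.07 to 1.02, adjusted p = 0.163, edgeR). These intervals do not exclude changes of up to 0.78 in WT and 1.02 in KK. EDNRB (chromosome 13, 78469616 to 78549664, minus strand) encodes the type B receptor, which also clears endothelin from the circulation. It had 0 reads in all 6 samples of pTRE and KK, 0, 0 and 1 read in WT, and 1, 4 and 1 reads in R109K. In the samples with 0 reads, a limit of 3 reads corresponds to 0.104 to 0.241 CPM, for counting error only. EDNRB did not pass the filter and was not tested.

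The genes of the converting enzymes differed from each other. ECE1 (GRCh37, chromosome 1, 21543740 to 21672065, minus strand) encodes the main enzyme that cuts big endothelin. It was at 156, 172 and 197 CPM in pTRE, 306, 311 and 291 in WT, 267, 229 and 257 in R109K, and 325, 314 and 305 in KK. All samples with E2F1 were above those of pTRE, and the R109K samples lay below all those of WT and KK. How many of all tested genes separate in these ways was not counted, so the order is only a description of ECE1. Per kilobase of exon ECE1 was the highest member in every line, at 24.0 CPM per kilobase in pTRE and 41.4 in WT, 34.3 in R109K and 43.1 in KK (means, n = 3). ECE1 rose by 0.79 on the log2 scale in WT (SE 0.12, adjusted p = 7.75e-05), by 0.85 in KK (SE 0.12, adjusted p = 4.33e-05) and by 0.52 in R109K (SE 0.12, adjusted p = 0.0033, edgeR). The R109K difference no longer passed the adjusted p threshold without pTRE replicate 1 (edgeR adjusted p = 0.0204) or pTRE replicate 2 (0.0187). The same held without R109K replicate 1 (0.0236) or R109K replicate 3 (0.0165). R109K differed from WT by -0.27 (95% interval -0.52 to -0.03, adjusted p = 0.187) and from KK by -0.33 (-0.57 to -0.08, adjusted p = 0.21), and neither passed edgeR's adjusted threshold. KK differed from WT by 0.06 (-0.19 to 0.30, adjusted p = 0.862). An antisense gene, ECE1-AS1, shares 240 exon bases with ECE1.

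ECE2 (chromosome 3, 183993799 to 184010819, plus strand) encodes a related endopeptidase known from acidic secretory compartments. It was at 8.51, 9.46 and 12.2 CPM in pTRE, 10.5, 8.27 and 9.54 in WT, 10.3, 14.8 and 9.34 in R109K, and 10.6, 13.9 and 11.1 in KK. Each E2F1 line overlapped with pTRE. The difference of ECE2 from pTRE was -0.08 on the log2 scale in WT (95% interval -0.50 to 0.33, adjusted p = 0.751), 0.19 in R109K (-0.21 to 0.60, adjusted p = 0.503) and 0.23 in KK (-0.17 to 0.64, adjusted p = 0.373, edgeR). Of its exon bases 2965 are shared with the readthrough gene EEF1AKMT4-ECE2 on the same strand, so the counts of ECE2 are uncertain.

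Under the thresholds of the study's methods, an adjusted p below 0.01 and a change greater than 2-fold, edgeR called 0 of the 4 other members tested in any of the 6 comparisons, and DESeq2 also called 0. Over all tested genes the share called was 11.8% in WT against pTRE, 10.9% in KK against pTRE, 7.19% in R109K against pTRE, 0.343% in R109K against WT, 0.0902% in R109K against KK and 0.00602% in KK against WT. By direction, 1311 genes were called higher and 653 lower than pTRE in WT, 1165 and 649 in KK, and 771 and 425 in R109K. At an unadjusted p below 0.05 there were 2 of the 4 in each comparison with pTRE and 1 in each comparison between E2F1 lines. The share of all tested genes at that level was 49.0% in WT against pTRE, 45.6% in KK against pTRE, 38.6% in R109K against pTRE, 22.3% in R109K against WT, 12.4% in R109K against KK and 8.51% in KK against WT. With the adjusted p alone, EDN1 and ECE1 were higher in WT, and ECE1 was higher in KK and in R109K. The share of all genes higher by that rule was 14.8% in WT, 13.8% in KK and 10.0% in R109K, and with 4 genes tested no departure of the members from these shares was read.

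**Figure D3:**
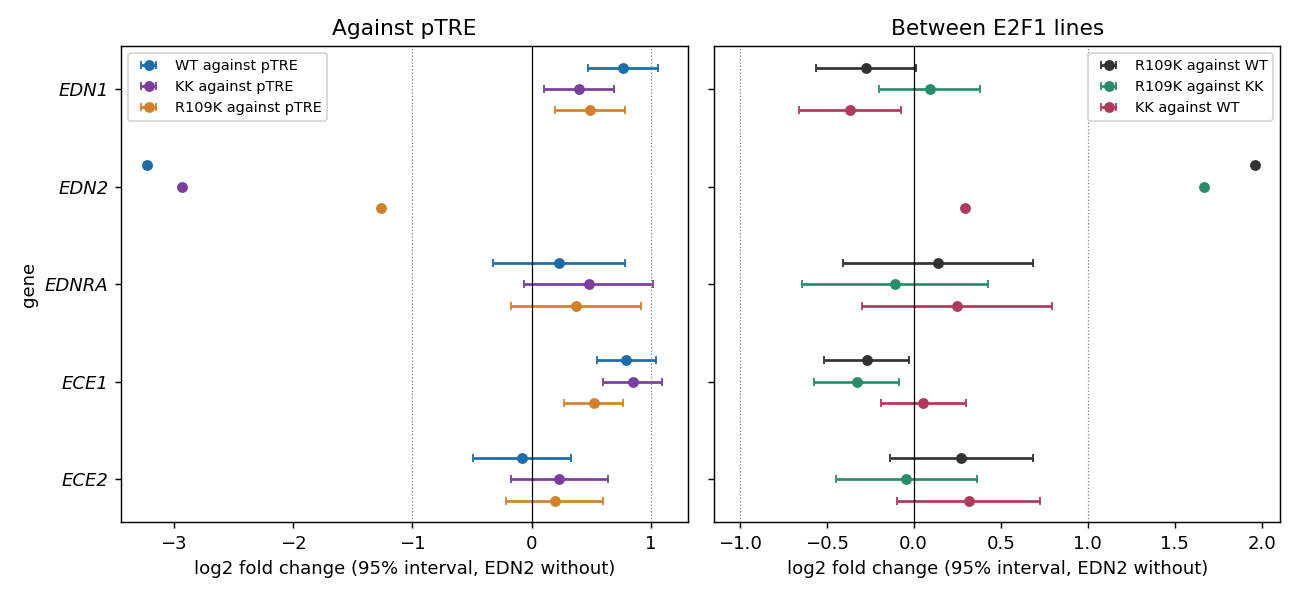
log2 fold changes (x axis) of the 5 members that passed the filter, against pTRE (left) and between the E2F1 lines (right, on its own scale); points are edgeR estimates, bars 95% intervals (EDN2, which chose the group, without), and dotted lines mark 2-fold. EDN2 lies at -3.22, -2.93 and -1.26 against pTRE, and ECE1 lies at 0.52 to 0.85.

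The genes around the endothelins were described by 5 lists with tested genes, read against the shares of all genes above. These lists were chosen with earlier results of the same data known, so their calls and p-values are a description. Of the 11 tested peptidases of precursor processing, 1 was called higher in WT and in R109K, and in KK 1 was called higher and 1 lower. PCSK5, a proprotein convertase, went from 16.1 CPM ± 2.23 (SD, n = 3) in pTRE to 38.7 ± 3.13 in WT, 38.9 ± 6.71 in KK and 36.1 ± 4.58 in R109K (edgeR adjusted p = 1.08e-05, 1.04e-05 and 3.9e-05). PCSK2, the convertase of neuroendocrine granules, fell in KK by 1.16 on the log2 scale (edgeR adjusted p = 0.00463), from 2.52 to 1.14 CPM. That call was lost when pTRE replicate 1 or 2 or KK replicate 1 or 3 was left out. In WT, KK and R109K the list medians were -0.02, 0.08 and -0.20, beside medians between -0.01 and 0.00 over all genes.

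Of the 26 tested genes of receptor signalling, 3 were called higher in WT, 3 higher in KK, and in R109K 2 higher and 1 lower. The list medians were 0.13, 0.15 and 0.18. The WT count was 5 without WT replicate 3, and the total of 3 in R109K was 1 without R109K replicate 1 or 3 or any 1 of the pTRE replicates. ARRB2, an arrestin that takes activated receptors off their G proteins, was at 34.9 CPM in pTRE and 73.6 in WT, 86.3 in KK and 75.1 in R109K (edgeR log2 differences of 1.08, 1.31 and 1.11, adjusted p = 2.14e-05, 3.61e-06 and 3.02e-05), and its WT call was lost without WT replicate 1. GNA15, a G protein subunit that activates phospholipase C, had 2 reads over the 3 pTRE samples, 31 in WT, 20 in R109K and 11 in KK. It passed in WT (edgeR adjusted p = 0.000704) and in R109K (0.00989), and the R109K call was lost in 9 of 10 other settings. PLCB4, a phospholipase C, fell by 1.90 in R109K (edgeR adjusted p = 0.00519), a call that was lost when any of the 6 samples was left out and with the replicate number as a block.

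Among 14 tested regulators known to act on endothelin transcription, 4 were called higher in WT, 3 in KK and 1 in R109K, and 0 were called lower. By sign alone, 10, 8 and 10 lay above pTRE and 4, 6 and 4 below it in WT, KK and R109K. The medians were 0.22, 0.17 and 0.16. FOS, a subunit of AP-1, averaged 8.09 CPM ± 3.19 (SD, n = 3) in pTRE and 36.1 ± 15 in WT, 29.4 ± 3.03 in KK and 13.7 ± 4.83 in R109K (edgeR adjusted p = 9.46e-05, 0.000333 and 0.0904). FOXO1, a forkhead factor, was at 7.87 ± 1.03 CPM in pTRE and 35.2 ± 8.55 in WT, 26.01 ± 5.91 in KK and 17.6 ± 3.00 in R109K and rose in each line (edgeR adjusted p = 1.57e-06, 1.23e-05 and 0.000618). KLF2, a flow-responsive factor that lowers EDN1 in endothelium, was at 4.45 CPM in pTRE and 9.82 in WT, 10.4 in KK and 8.35 in R109K. It passed in WT, though not without WT replicate 1, and in KK, and its 0.91 in R109K was short of 2-fold. No gene of any list was called by edgeR between R109K and WT, R109K and KK or KK and WT. R109K differed from WT by -1.40 on the log2 scale for FOS (adjusted p = 0.0246) and by -0.99 for FOXO1 (adjusted p = 0.0154, edgeR), and 2 regulators were called between R109K and WT when WT replicate 3 was left out.

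Hypoxia-inducible genes were listed because hypoxia is a known inducer of both ligand genes. Of 15 tested, 2 were called lower in WT, 3 in KK and 2 in R109K, and 0 were called higher. By sign alone, 4, 3 and 5 lay above pTRE and 11, 12 and 10 below it in WT, KK and R109K. The medians were -0.44, -0.43 and -0.33. EGLN3, an oxygen sensor of the HIF pathway, was at 7.47 CPM ± 0.828 (SD, n = 3) in pTRE and 3.16 ± 0.401 in WT, 2.93 ± 0.462 in KK and 3.33 ± 0.44 in R109K. P4HA1, a collagen prolyl hydroxylase subunit, went from 176 CPM in pTRE to 82.4 in WT, 69.4 in KK and 82.7 in R109K. Its WT call was lost without WT replicate 2 and its R109K call without R109K replicate 2. PFKFB4, a glycolytic regulator, fell by 1.01 in KK (edgeR adjusted p = 0.0082), a call kept in 6 of 12 other settings.

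Of 15 tested genes of other vasoactive peptides and receptors, 2 rose and 2 fell in WT, and 1 rose and 2 fell in KK and in R109K, with medians of -0.08, -0.05 and -0.18. The total of 4 in WT was 2 without pTRE replicate 1, pTRE replicate 2 or WT replicate 1. AGT, the precursor of angiotensin, went from 2.98 CPM ± 1.44 (SD, n = 3) in pTRE to 0.391 ± 0.13 in WT, 0.352 ± 0.10 in KK and 0.505 ± 0.0488 in R109K (edgeR adjusted p = 7.16e-05, 3.95e-05 and 0.000192). PTGIS, which makes the vasodilator prostacyclin, went from 12.2 ± 1.21 CPM to 2.92 ± 0.793, 2.46 ± 0.686 and 3.48 ± 0.812 (edgeR adjusted p = 8.98e-06, 3.03e-06 and 3.76e-05). NPR3, the clearance receptor for natriuretic peptides, was at 0.115 CPM in pTRE and rose by 2.19 in WT and 2.14 in KK (edgeR adjusted p = 0.0048 and 0.00533), and it differed by 1.97 in R109K (adjusted p = 0.0125, edgeR). The NPR3 counts were 1 to 5 reads a sample in pTRE. Each of the NPR3 calls in WT and KK was kept in 7 of 11 other settings.

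**Figure D4:**
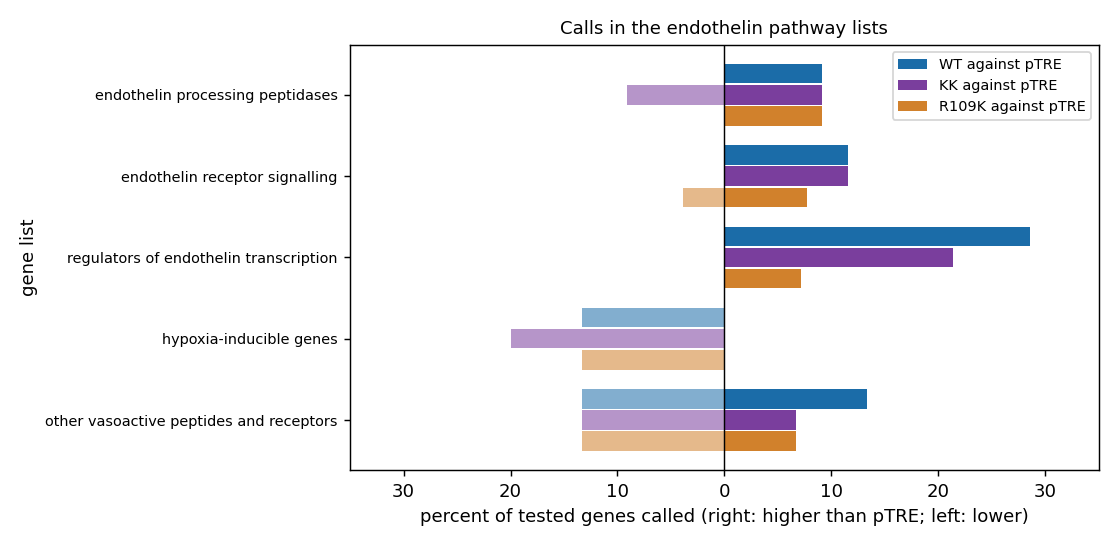
Percent of the tested genes of each list that edgeR called (x axis; higher than pTRE to the right, lower to the left and paler) in the 3 comparisons with pTRE. The regulators of endothelin transcription have 4, 3 and 1 calls of 14 genes in WT, KK and R109K, all higher, and the hypoxia-inducible genes 2, 3 and 2 of 15, all lower. Over all tested genes, 1311 were called higher and 653 lower in WT, 1165 and 649 in KK, and 771 and 425 in R109K.

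The genes most like EDN2 were found by Pearson's r of log2 CPM over the 12 samples, among 13304 genes with a mean of at least 50 reads. Of the 5 highest, 4 are given: FZD2, a Wnt receptor (r = 0.984), TGIF1, a homeodomain repressor (0.980), OGFOD3 (0.977) and FAM127C (0.976). The points share their libraries and fall into 4 lines. With the mean of each line removed, r was 0.83 for FZD2, 0.831 for TGIF1, 0.824 for OGFOD3 and 0.729 for FAM127C. FZD2 averaged 64.5 CPM ± 12.4 (SD, n = 3) in pTRE and 20.3 ± 3.27 in WT, 41.7 ± 5.80 in R109K and 21.02 ± 1.31 in KK, or 31.4%, 64.7% and 32.6% of pTRE in that order. TGIF1, OGFOD3 and FAM127C lay at 49.5% to 62% of pTRE in WT, 72.3% to 80.5% in R109K and 51.4% to 63% in KK. The genes were picked for their likeness to EDN2 over these same samples, and the r that picked them also contains the spread within lines. Both r values and the order of the genes over the lines are therefore a description, with no independent evidence in them.

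**Figure D5:**
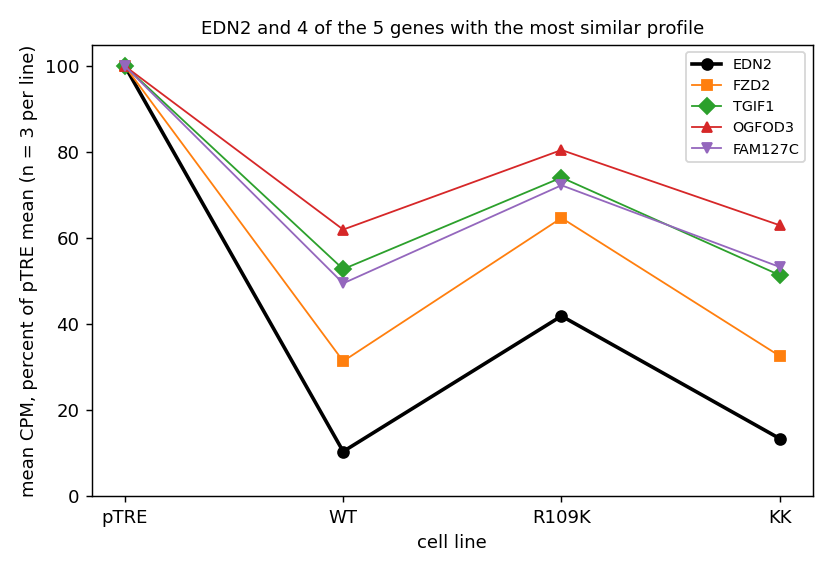
Mean CPM as a percent of the pTRE mean (y axis; n = 3 per line) for EDN2 and 4 of the 5 genes with the highest correlation with it, in the pTRE, WT, R109K and KK lines; lines join the points of a gene only to guide the eye. EDN2 is at 10.4%, 41.9% and 13.4% in WT, R109K and KK, and FZD2 at 31.4%, 64.7% and 32.6%.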

How the data were processed

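Poly(A) RNA libraries were made with a directional kit. According to the labels and methods, reads were trimmed with Trim Galore 0.4.3 and aligned to hg19 with STAR 2.5.1. The authors deposited raw read counts per gene symbol for each of the 12 samples, without normalization, and DESeq2 1.16.1 is named in the submitters' processing notes. The annotation version and the strand setting of the counting are not given in the sources used here. The 5 summary lines of uncounted reads were left out of library sizes, and 23.6% to 58.7% of reads were in the line for no feature.

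Differences were tested by edgeR 4.0.16, run under R 4.3.3 (filterByExpr by line, TMM, 1 mean per line over all 12 samples, glmQLFTest, Benjamini-Hochberg over 16625 genes). Calls used an adjusted p below 0.01 and a change greater than 2-fold. log2 CPM of single samples used a prior count of 2. DESeq2 1.42.0, RLE normalization, other filters, the 6 samples compared alone, a replicate block, an adjusted p of 0.05 and leave-one-out fits were alternatives. The scripts were tested on simulated data. The ratio without division by exon length was added after seeing the data.

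Named genes were the members, E2F1, at most 3 called genes per list with the largest change, and the 5 genes most correlated with EDN2, of which 1 is not reported here. Marker genes were chosen by type. Members and lists were chosen with earlier results of these data known. Positions and exon lengths came from GENCODE on GRCh37, and promoters from RefSeq. Same-numbered replicates correlated between -0.295 and 0.47 after removal of line means and were not treated as pairs. No pair of libraries of a line agreed within sampling noise. Figures were drawn with matplotlib 3.10.9.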

Additional observations from a re-analysis of the deposited data

How the results depend on the processing

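In all alternatives the fitted difference of EDN2 moved by less than the combined SD of the replicates of the lines compared. Leaving out 1 of 3 replicates could hardly exceed that limit, so no stability is read from it. With each replicate left out it ranged from -3.52 to -2.97 in WT against pTRE, -3.27 to -2.65 in KK against pTRE, -1.51 to -1.002 in R109K against pTRE, 1.72 to 2.25 in R109K against WT, 1.39 to 2.01 in R109K against KK and -0.04 to 0.59 in KK against WT. Counts of calls over all genes moved more from their values of 1964 in WT against pTRE, 1814 in KK against pTRE, 1196 in R109K against pTRE, 57 in R109K against WT, 15 in R109K against KK and 1 in KK against WT. Without the fold threshold and at an adjusted p below 0.05, there were 6674 genes in WT against pTRE, 6097 in KK against pTRE, 4679 in R109K against pTRE, 561 in R109K against WT, 194 in R109K against KK and 2 in KK against WT. That rule called 2 of the 4 other members tested in each comparison with pTRE. DESeq2 called 132 genes in R109K against WT, 68 in R109K against KK and 5 in KK against WT. With no filter the counts were 99, 32 and 4, with only the 6 samples compared 0, 3 and 0, and with at least 10 counts in every sample 8 in R109K against KK. With 1 replicate left out they ranged from 3 to 157, 1 to 11 and 0 to 2. Whether the replicate numbers mark pairs was not settled. Of 18 same-numbered pairs, 5 correlated above 0.1, and 7 of 12 samples correlated best with their own number. The mean r was 0.0436 for same-numbered pairs and -0.0235 for the others. With the replicate block 0 genes were called in KK against WT, and EDN2 in R109K against pTRE was at -1.29. The direction of small differences turned in the leave-one-out fits: EDN2 in KK against WT was at -0.04 without KK replicate 2, ECE2 ranged from -0.20 to 0.076 in WT against pTRE, -0.0345 to 0.35 in R109K against pTRE and -0.27 to 0.0883 in R109K against KK, EDNRA from -0.0476 to 0.30 in R109K against WT and -0.28 to 0.0573 in R109K against KK, and EDN1 from -0.0099 to 0.17 in R109K against KK. EDN1 in R109K against pTRE passed an adjusted p of 0.01 with DESeq2 (0.00586) and with only the 6 samples compared (0.00743, edgeR). Of the lists, the vasoactive genes had 5 calls in KK against pTRE with DESeq2, in place of 3, and 2 in WT against pTRE, in place of 4, with only the 6 samples compared or at least 10 counts in every sample. The receptor signalling genes had 1 in R109K against pTRE, in place of 3, with that count minimum or the replicate block, the regulators had 1 in R109K against WT, in place of 0, with no filter or the replicate block, and the peptidases had 1 in R109K against KK, in place of 0, with DESeq2. The mean ratio of EDN2 to EDN1 reads without division by exon length was 1.22 in pTRE, 0.0771 in WT, 0.373 in R109K and 0.131 in KK. By that measure pTRE replicate 1 was at 0.996, just below 1. The cause of these shifts was not tested. EDNRB, EDN3 and the 12 reads of EDN2 in WT replicate 2 mark where depth limits the measurements.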
